A study of Mus musculus with 4 samples.

Results

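Acetylation of lysine 27 on histone H3 (H3K27ac), which marks enhancers and promoters in use, was examined at 8 autosomal genes of the dystrophin complex in dystrophic mouse hearts. The genes were *Utrn*, *Dag1*, *Sgca*, *Sgcb*, *Sgcd*, *Sntb1*, *Dtna* and *Sspn*. Each gene was given a window of its body plus 20 kb upstream of its annotated start (mm9 genome, GENCODE vM1 annotation), and every called region centred in a window was taken. These 8 windows held 21 of the 35547 regions of both deposited lists, with 9 of 12566 from *mdx* IKKβf/f hearts and 12 of 22981 from *mdx* HRTΔIKKβ hearts. The window rule itself uses no measured value, but the genes were chosen with earlier results of these data known.

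All mice were *mdx*, a strain without dystrophin, and were 7 months old. Both genotypes carried the floxed gene of IKKβ, the kinase that activates NF-κB. In *mdx* HRTΔIKKβ it was deleted by cre under the *Myh6* promoter, which acts in cardiomyocytes, and *mdx* IKKβf/f littermates served as the group with intact NF-κB. These genotypes are called HRTΔIKKβ and IKKβf/f below. Chromatin came from heart tissue, in which fibroblasts, endothelial cells and leukocytes keep IKKβ, so fewer cells of a type and less acetylation per cell cannot be told apart. With 1 ChIP library and 1 matched input per genotype, no difference between genotypes could be tested. The 95% intervals below are exact Poisson or binomial intervals and cover counting error only.

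Dystrophin ties the actin cytoskeleton of a muscle cell to the basement membrane. It binds dystroglycan, which spans the membrane and holds laminin outside, while sarcoglycans and sarcospan steady the complex within the membrane and syntrophins and dystrobrevins join it from the inside. Utrophin is a close relative of dystrophin that binds the same partners and can take its place when dystrophin is missing. The *Dmd* gene itself lies on the X chromosome and is described only beside the related genes below.

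*Sgcb*, which encodes β-sarcoglycan, held the only region within 3 kb of an annotated start of any of the 8 genes, in IKKβf/f. It also held the only region upstream of the outermost annotated start of its gene, in HRTΔIKKβ, inside the neighbouring gene *Spata18*. *Sgcd*, which encodes δ-sarcoglycan, held most of the regions. The central 300 bp of these called regions are printed from the plus strand of mm9. Capitals mark GATAA (bound by GATA factors), CANNTG (the E-box of muscle regulatory factors) and CCCTC (the letters CTCF is named for) on either strand. The *Sgcb* sequences are chr5:74036876-74037175 and chr5:74046790-74047089 and the *Sgcd* sequences chr11:47423577-47423876 and chr11:47731535-47731834. The *Sgcd* regions shown had the highest peak score in IKKβf/f and the most normalized tags in HRTΔIKKβ. Their introns are numbered in an annotated transcript with 3 exons, and both lie upstream of the transcripts with 7 and 8 exons.
Sgcb intron 1, IKKβf/f: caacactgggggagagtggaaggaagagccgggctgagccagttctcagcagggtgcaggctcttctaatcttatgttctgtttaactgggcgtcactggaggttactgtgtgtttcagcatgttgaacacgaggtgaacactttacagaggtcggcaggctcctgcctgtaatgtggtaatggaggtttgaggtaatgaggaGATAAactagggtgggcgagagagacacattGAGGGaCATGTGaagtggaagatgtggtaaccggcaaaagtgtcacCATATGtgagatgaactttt
Sgcb upstream, HRTΔIKKβ: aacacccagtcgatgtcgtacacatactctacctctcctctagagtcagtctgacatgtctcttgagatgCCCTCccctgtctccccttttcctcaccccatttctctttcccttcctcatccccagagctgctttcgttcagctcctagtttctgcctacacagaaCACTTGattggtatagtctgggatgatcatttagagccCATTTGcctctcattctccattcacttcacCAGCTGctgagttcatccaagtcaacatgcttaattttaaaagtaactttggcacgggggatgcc
Sgcd intron 2, IKKβf/f: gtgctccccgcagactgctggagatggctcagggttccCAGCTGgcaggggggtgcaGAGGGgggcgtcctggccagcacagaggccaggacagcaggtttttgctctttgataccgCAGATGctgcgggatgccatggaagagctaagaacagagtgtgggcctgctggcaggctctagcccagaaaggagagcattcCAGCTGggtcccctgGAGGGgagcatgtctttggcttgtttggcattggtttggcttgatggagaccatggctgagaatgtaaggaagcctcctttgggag
Sgcd intron 1, HRTΔIKKβ: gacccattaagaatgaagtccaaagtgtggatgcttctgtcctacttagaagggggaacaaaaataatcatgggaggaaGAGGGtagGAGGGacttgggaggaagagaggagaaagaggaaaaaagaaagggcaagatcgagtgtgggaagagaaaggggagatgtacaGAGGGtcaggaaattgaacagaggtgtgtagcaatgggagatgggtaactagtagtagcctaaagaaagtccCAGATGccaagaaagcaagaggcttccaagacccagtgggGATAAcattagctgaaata

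The GC content of these 4 stretches was 49.3%, 47.7%, 59.3% and 46.0% in the order printed. The peak scores of their regions were 29, 31, 39 and 30, where the caller's thresholds were 29 in IKKβf/f and 30 in HRTΔIKKβ. A GATAA lay in the *Sgcb* intron 1 and *Sgcd* intron 1 stretches, and CANNTG and CCCTC lay in all 4. The consensus of NF-κB was searched as well and lay in the central 300 bp of none of the 21 regions, against 3.17% and 3.15% of all autosomal regions of the IKKβf/f and HRTΔIKKβ lists.

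The caller was HOMER findPeaks, run by the authors on each library against its input. Each region has a peak score on the scale of the caller's tag threshold, normalized tags (ChIP tags scaled to 10000000 per library), input tags, and a fold over input. ChIP depth was 57852347 tags for IKKβf/f and 62458751 for HRTΔIKKβ, the score thresholds were 29 and 30, and both lists require 4-fold over input. A gene without a region is therefore a gene without a region past these thresholds, not a gene shown to lack acetylation. Efficiency of immunoprecipitation as estimated by the caller was 0.71% in IKKβf/f and 1.26% in HRTΔIKKβ, and the lists differed 1.83-fold in length. The part of either in the counts below was not tested. Of 9 cardiomyocyte genes counted by the same window rule, 2 held a region in IKKβf/f and 4 in HRTΔIKKβ, and *Myh6*, *Actc1*, *Tnnt2*, *Myl2* and *Actn2* held none in either. These counts stand beside 22.7% and 36.5% of all autosomal protein-coding genes. The 9 windows held 2 and 11 regions where 4.44 and 7.93 were expected from chromosome density, and 8 of the 11 lay at *Ryr2*. None of the 9 had a region within 3 kb of its start, and only 2.82% and 5.27% of all genes did, so the lists give no check of the tissue at these starts. Of all autosomal regions, only 4.71% in IKKβf/f and 4.88% in HRTΔIKKβ lay within 3 kb of a gene start. Genes with a region numbered 2 and 1 of 5 for fibroblasts, 0 and 3 of 4 for endothelium, 2 and 2 of 4 for leukocytes and 0 and 2 of 4 for tissues other than heart, in IKKβf/f and HRTΔIKKβ respectively. The window of *Ikbkb*, which encodes IKKβ, held 0 and 1 region, and region lists of this kind cannot check its deletion.

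Across the 8 windows, 2.37 Mb in all, regions were no denser than on the same chromosomes as a whole. The windows held 9 regions in IKKβf/f (95% interval 4.12 to 17.1), where window length times the density of each chromosome gave 13, a ratio of 0.693 (0.317 to 1.31). They held 12 in HRTΔIKKβ (6.20 to 21.0) where 24.2 were expected, a ratio of 0.497 (0.257 to 0.868). The interval thus included 1 in IKKβf/f and lay below 1 in HRTΔIKKβ. All 21281 windows of autosomal protein-coding genes, counted in the same way, had ratios of 1.04 and 1.07. Region density rose with GC content up to 60% in both lists, from 0.984 and 1.30 per Mb of sequence with 30 to 35% GC to 13.8 and 26.4 per Mb at 50 to 55%. It was 16.1 and 26.7 per Mb at 55 to 60%. Above that it fell, to 12.5 and 16.7 at 60 to 65% and to 2.41 and 5.79 at 65% or more. With expectations from the GC classes of each window in place of its chromosome, the ratios were 0.878 (0.401 to 1.67) and 0.650 (0.336 to 1.14), and both intervals included 1. This change lay at *Sgcd*, whose expectations went from 6.76 to 4.03 and from 12.7 to 7.15. The other 7 windows held 3 (0.619 to 8.77) and 5 (1.62 to 11.7) regions. There 6.24 and 11.4 were expected from chromosome density, and 6.22 and 11.3 from GC classes.

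At least 1 region was found in 3 of the 8 genes in IKKβf/f and 4 of 8 in HRTΔIKKβ, against the shares of 22.7% and 36.5% over all genes. *Sgcd*, *Sntb1* and *Dtna* had more regions in HRTΔIKKβ, *Sgcb* had 1 in each, and none of the 8 had fewer. Over all genes, 28.6% had more and 11.3% fewer. The windows of the 8 genes ranged from 33.5 to 1113 kb and the median over all genes was 35.6 kb. The shares with a region are therefore read below within classes of length. Those with more or fewer were not split by length, and the 3 genes with more had windows of 264 to 1113 kb. From IKKβf/f to HRTΔIKKβ the count rose 1.33-fold in the 8 windows and 1.83-fold in the whole lists. A score of 31.3 in HRTΔIKKβ stands in the same relation to the expected tags as the IKKβf/f threshold of 29. Scores are whole numbers, so HRTΔIKKβ regions were kept from 32, a slightly stricter cut. The whole list then fell to 13905 regions and 5 were left in the windows. At this cut only *Dtna* had more regions in HRTΔIKKβ, while *Sgcd* had 2 against 6 and *Sgcb* 0 against 1. At the slightly looser cut of 31, chosen after seeing the data, 8 of 17948 regions lay in the windows. *Sgcd* then had 4 against 6 and *Sgcb* 1 against 1.

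**Figure D1:**
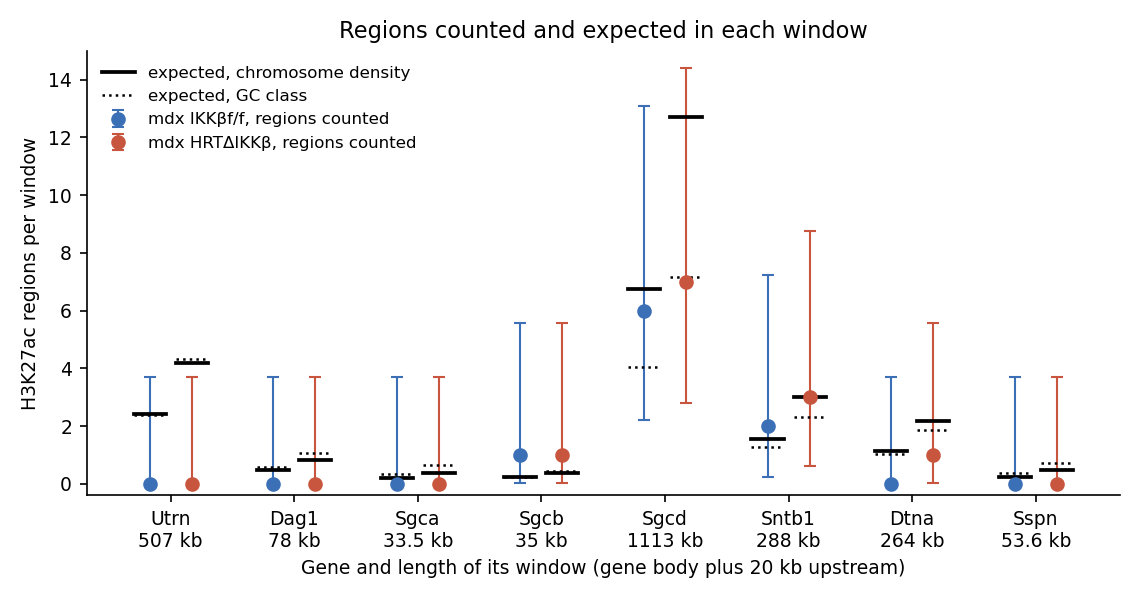
Regions counted in each window (points, with exact Poisson 95% intervals) for IKKβf/f (blue) and HRTΔIKKβ (red), beside the count expected from chromosome density (solid bars) and from GC classes (dotted bars). *Utrn* lies at 0 in both genotypes with 2.43 and 4.19 expected, and *Sgcd* lies at 6 and 7 with 6.76 and 12.7 expected.

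*Utrn*, which encodes utrophin, held no region in either genotype over a window of 507 kb. The gene spans 487 kb of chromosome 10 (12101986 to 12589163, minus strand). From the density of the chromosome, 4.79 and 8.27 regions per Mb, 2.43 regions were expected in IKKβf/f and 4.19 in HRTΔIKKβ. A count of 0 has an upper 95% bound of 3.69 regions, above the first expectation and below the second. Expectations from GC classes were close to these, at 2.38 and 4.31. Of 221 autosomal windows of 400 to 650 kb, *Utrn* was 1 of 3 with no region in either list (1.36%), beside *Dlc1* and *Gm10406*, which are named after their counts were seen, and 84.6% held a region in IKKβf/f and 95.9% in HRTΔIKKβ. All 3 were among the 59 windows of that length within 1 percentage point of its GC content. GC content was 41.5% in its window and had a median of 41.4% over the 218 windows of that length that held a region. The stretch of chromosome 10 free of regions reached 734 kb in IKKβf/f and 629 kb in HRTΔIKKβ. In HRTΔIKKβ the closest region upstream lay 16.9 kb outside the window, and in IKKβf/f it lay 158 kb outside.

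**Figure D2:**
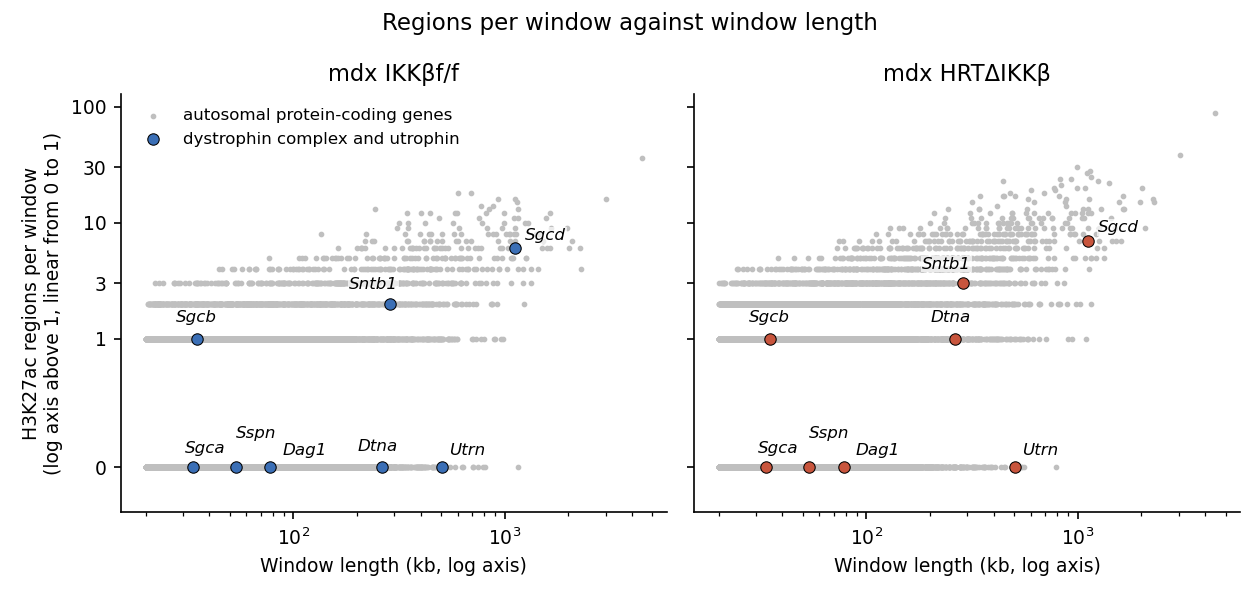
Number of regions per window (log axis above 1) against window length (log axis) for every autosomal protein-coding gene (grey) and the 8 genes (coloured) in each genotype. *Utrn* lies at 0 in both panels at 507 kb, where 84.6% and 95.9% of the windows of 400 to 650 kb held at least 1 region, while *Sgcd* and *Sntb1* lie among the grey points of their length.

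*Dag1*, *Sgca* and *Sspn* also held no region in either genotype, but their windows were short. *Dag1* encodes dystroglycan, the link to laminin, and its window measured 78.0 kb (gene at chromosome 9, 108108286 to 108166255). *Sgca* encodes α-sarcoglycan, with a window of 33.5 kb (chromosome 11, 94824105 to 94837641) that also takes in parts of *Hils1* and *Ppp1r9b*. *Sspn* encodes sarcospan, with a window of 53.6 kb (chromosome 6, 145880161 to 145913743). Counts expected from chromosome density were under 1 for each, from 0.204 to 0.461 in IKKβf/f and from 0.383 to 0.835 in HRTΔIKKβ, and those from GC classes reached 1.06, for *Dag1* in HRTΔIKKβ. No region in either list was also the commoner outcome for windows under 50 kb, at 64.6% of 14254, and was found for 42.8% of 4109 windows of 50 to 100 kb.

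The sarcoglycans held 15 of the 21 regions. *Sgcd*, the longest of the 8 genes at 1093 kb (chromosome 11, 46709755 to 47802471, minus strand), held 6 regions in IKKβf/f and 7 in HRTΔIKKβ, which is 61.9% of the regions in 46.9% of the window length. Per Mb these are 5.39 (1.98 to 11.7) beside 6.07 on the whole chromosome, and 6.29 (2.53 to 13) beside 11.4. The counts were therefore 0.888 and 0.550 of those expected from the chromosome, and 1.49 and 0.979 of those expected from GC classes, since the window of *Sgcd* was the poorest in GC at 39.7%. The median of the 66 autosomal windows over 900 kb was 6 regions in IKKβf/f and 9 in HRTΔIKKβ. *Sgcd* was thus at the median in 1 genotype and below it in the other.

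The *Sgcd* regions were spread over most of the gene. None overlapped between genotypes, as was the case for all but 3.19% and 1.74% of the whole lists. In IKKβf/f they lay 88.4, 284, 293, 379, 600 and 956 kb downstream of the annotated start. In HRTΔIKKβ they lay 70.8, 165, 180, 318, 346, 441 and 837 kb downstream. The annotation gives 5 transcripts of the gene, and the start used here is that of a transcript with 3 exons, while those with 7 and 8 exons start 410 and 609 kb farther downstream. None of the 13 lay within 3 kb of any of these starts. All 13 lay in an intron of some annotated transcript. Those 70.8 to 379 kb from the start were placed in introns of the transcript with 3 exons. They lay upstream of the starts of the transcripts with 7 and 8 exons. The closest approach between the genotypes was 16.8 kb, between the regions nearest to the start. The highest peak score, 39, belonged to the IKKβf/f region chr11:47423476-47423976, with 6.40 normalized tags (4.50 to 8.82) and 5 input tags, and 4.39% of its list scored higher. In HRTΔIKKβ the highest score was only 32, shared by chr11:47455991-47456491 and chr11:47483749-47484249, and 46.9% of that list scored higher.

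The regions of *Sgcd* nearest to its start differed in width and tags. The HRTΔIKKβ region chr11:47731130-47732239 was 1109 bp wide and carried 11.2 normalized tags (8.74 to 14.2), more than any other region of the 8 genes, with 8 input tags and 5-fold enrichment. That total goes with its width, since per 500 bp it carried 5.05 tags, beside a median of 4.96 over its list, and its peak score was 30, the threshold. The nearest IKKβf/f region, chr11:47713870-47714370, was 500 bp wide with 4.84 normalized tags (3.22 to 7.00), a score of 30 and 3 input tags. Chosen after the values were seen, chr11:46964760-46965260 in HRTΔIKKβ had the largest fold over input of all, 16.59, on 1 input tag, and its interval ran from 2.75 to 678.

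*Sgcb* spans 15.0 kb of chromosome 5 (74023988 to 74038983, minus strand) and held 1 region in each genotype, where 0.22 and 0.384 were expected. The IKKβf/f region, chr5:74036708-74037343, lay in intron 1 at 1.96 kb from the start and was 635 bp wide. It had 6.05 normalized tags (4.21 to 8.41), a score of 29, 4 input tags and 6.02-fold enrichment (2.15 to 23.3). The HRTΔIKKβ region, chr5:74046689-74047189, lay upstream at -7.96 kb from the start, inside the neighbouring gene *Spata18*. It had 4.48 normalized tags (2.98 to 6.48), a score of 31, 2 input tags and 8.01-fold enrichment (2.02 to 69.3). The regions were 9.35 kb apart, the shortest distance between the genotypes in any of the 8 windows. Over all autosomal protein-coding genes, 2.82% had a region within 3 kb of their start in IKKβf/f and 5.27% in HRTΔIKKβ, beside 1 and 0 of the 8 genes.

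**Figure D3:**
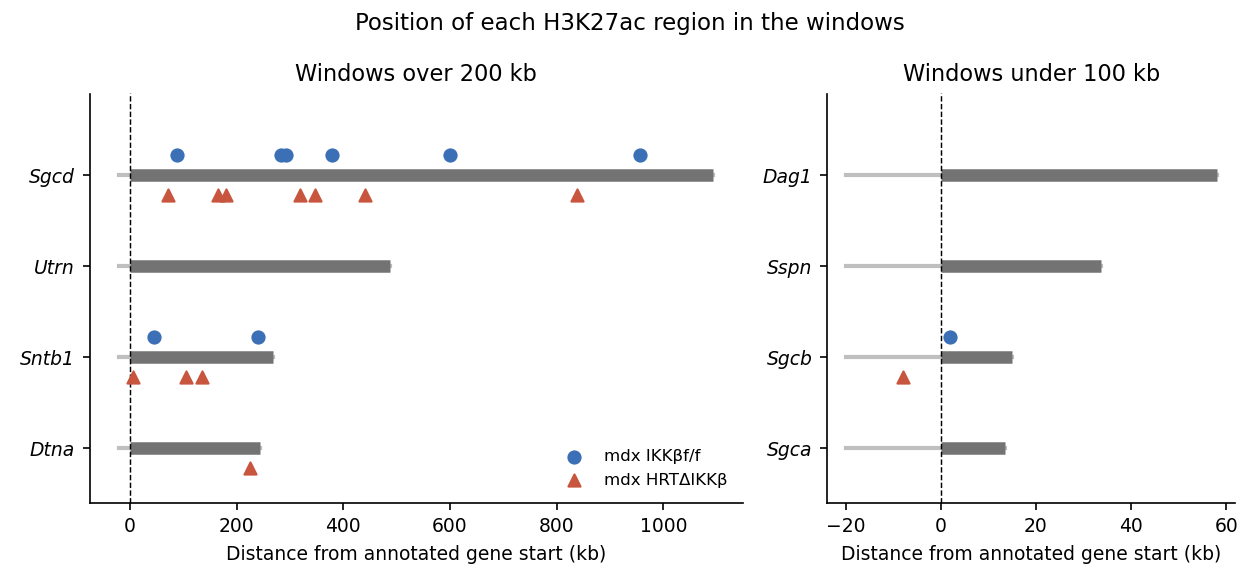
Position of each region (blue circles, IKKβf/f; red triangles, HRTΔIKKβ) as distance in kb from the annotated gene start, with the gene body as a dark bar and the 20 kb upstream as a thin line. Regions of *Sgcd* run from 70.8 to 956 kb downstream, and those of *Sgcb* lie at 1.96 and -7.96 kb.

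At the inner face of the complex, *Sntb1*, which encodes β1-syntrophin, held 2 regions in IKKβf/f and 3 in HRTΔIKKβ over a window of 288 kb (gene at chromosome 15, 55470398 to 55738504, minus strand), where 1.54 and 2.99 were expected. These are 6.94 and 10.4 per Mb, beside 5.34 and 10.4 on the chromosome. The IKKβf/f regions lay 45.6 and 239 kb from the start. The nearer, chr15:55692621-55693121, had 4.67 normalized tags (3.08 to 6.79) and a score of 29, and the farther, chr15:55499030-55499530, had 5.36 (3.64 to 7.61) and a score of 31. In HRTΔIKKβ all 3 regions were intronic and carried 4.80 to 5.28 normalized tags. The region with the highest score, 36, was chr15:55633901-55634401, with 5.28 normalized tags (3.64 to 7.42), 2 input tags and 9.44-fold enrichment (2.42 to 81.3).

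*Dtna*, which encodes α-dystrobrevin, was the only gene of the 8 with a region in a single genotype. Its window of 264 kb (gene at chromosome 18, 23573916 to 23818215, plus strand) held 0 regions in IKKβf/f, where 1.13 were expected, and 1 in HRTΔIKKβ, where 2.18 were. The interval around 0 reached 3.69 regions and that around 1 ran from 0.0253 to 5.57, so the intervals overlap. The region lay in intron 16 of a transcript with 22 exons, 225 kb downstream of the outermost start and far toward the other end of the gene. It lay 38.0 kb downstream of the nearest annotated start of any *Dtna* transcript. It had 5.92 normalized tags (4.17 to 8.17), a score of 37, 2 input tags and 10.58-fold enrichment (2.74 to 90.8), and 12.8% of its list scored higher. In windows of 200 to 300 kb, the class of *Dtna* and *Sntb1*, the median gene held 1 region in IKKβf/f and 2 in HRTΔIKKβ.

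In most of what the window rule did not use, the 21 regions lay close to the whole lists. All but the *Sgcb* upstream region lay in an intron of some annotated transcript of their gene. Of the 21, 0 touched an exon of a protein-coding gene, while 22.4% and 21.3% of the regions in all autosomal gene windows did. These shares were not matched for gene length or exon content. Of the 21 regions, 13 lay in *Sgcd*, which spans 1093 kb, so the contrast is not read as a trait of the regions. The standard width of 500 bp was found in 8 of 9 and 11 of 12, beside 85.8% and 84.0% of the lists. Scores lay within 5 of the threshold in 7 of 9 and 10 of 12, beside 79.7% and 77.7%. The median score was 31 in both genotypes, beside 31 and 32 in the whole lists, and the median of normalized tags was 5.53 and 4.80, beside 5.36 and 5.12. Median GC content was 44.6% and 44.3%, beside 47.8% in either list, and the regions held a median of 3 and 2 CpG, beside 5 in either list.

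Fold over input reached higher values in HRTΔIKKβ. In IKKβf/f it ran from 4.02 to 6.42 with a median of 4.82, and in HRTΔIKKβ from 4.15 to 16.6 with a median of 5.36. At least 8-fold enrichment was reached by 0 of 9 and 5 of 12 regions, beside 14.9% and 20.7% of the whole lists. The 5 were 2 in *Sgcd* and 1 each in *Sgcb*, *Sntb1* and *Dtna*, and each rested on 1 or 2 input tags, with lower interval bounds between 2.02 and 2.75. Input tags ran from 3 to 6 in IKKβf/f and from 1 to 8 in HRTΔIKKβ. Each of these bounds lay below the median fold of the IKKβf/f regions.

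**Figure D4:**
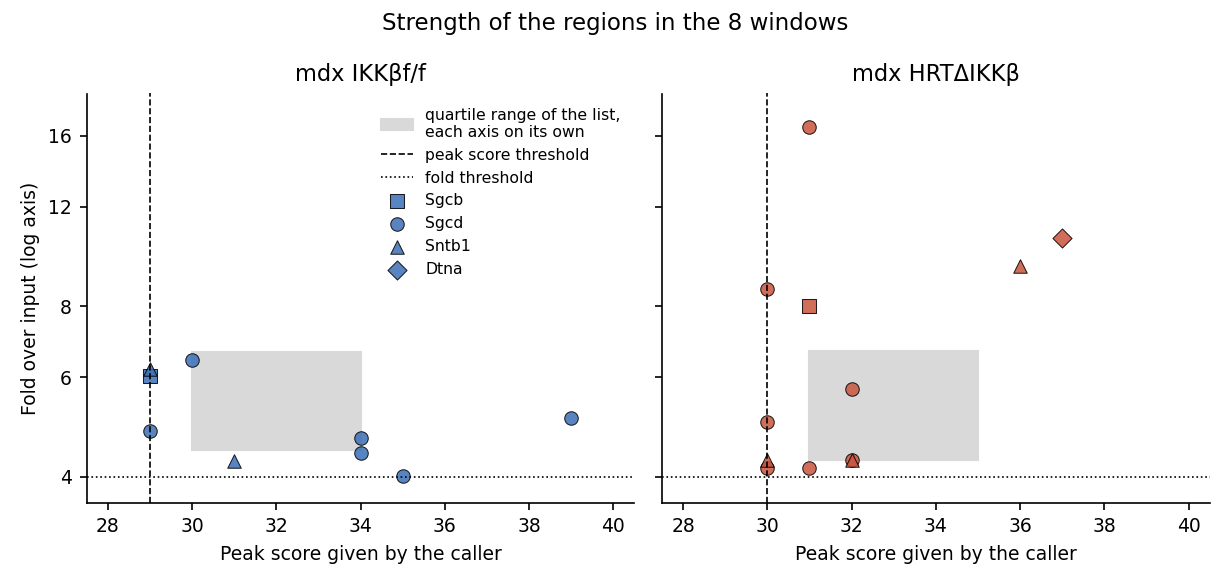
Peak score against fold over input (log axis) of each region in the 8 windows, by gene (symbols) and genotype (panels), with the caller's thresholds (lines) and the quartile range of each whole list (grey box). In IKKβf/f every region lies at or below 6.42-fold, and 5 HRTΔIKKβ regions lie above 8-fold.

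No region was shared between genotypes in these windows. Overlap of at least 1 bp was found for 0 of 9 and 0 of 12 regions, and for 3.19% and 1.74% of the whole lists. The distance from an IKKβf/f region to the closest HRTΔIKKβ region had a median of 34.2 kb, and in the other direction 60.2 kb. Within the central 300 bp, GATAA was found in 2 of 9 and 6 of 12 regions, beside 31.3% and 30.4% of the lists. CANNTG was found in 8 of 9 and 10 of 12, beside 84.7% and 84.8%, and CCCTC in 4 of 9 and 7 of 12, beside 56.3% and 55.7%. None of these 3 motifs contains another, and a match is a description of the letters only.

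The other genes of the dystrophin complex were counted by the same rule. The list of 11 held 12 regions in IKKβf/f (6.20 to 21.0), where 16.3 were expected, and 29 in HRTΔIKKβ (19.4 to 41.6), where 29.4 were. Of the 11 genes, 6 had more regions in HRTΔIKKβ and 2 had fewer, beside 28.6% and 11.3% of all autosomal protein-coding genes. Those shares come from windows with a median of 35.6 kb and were not split by length, while windows of this list reached 2277 kb. The HRTΔIKKβ list was also 1.83-fold longer. *Nos1*, the neuronal nitric oxide synthase that syntrophin anchors, held 2 and 7 regions. The γ-syntrophin genes *Sntg1* and *Sntg2* held 1 and 8, and 6 and 5. *Sgcz*, encoding ζ-sarcoglycan, is as long as *Sgcd*, with a window of 1159 kb, but held 0 and 2 regions where 6.50 and 11.4 were expected. *Dmd*, whose window of 2277 kb is the longest of the list, held 0 and 1, with 0.0843 and 0.295 expected from the low density of regions on the X chromosome.

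Partners of the complex outside the cell and beside it were counted in the same way. Of 12 genes that add or help add the sugar chains of dystroglycan, 10 were matched in the annotation, with 6 regions in IKKβf/f and 7 in HRTΔIKKβ where 6.91 and 12.1 were expected. *Large*, a glycosyltransferase gene with a window of 559 kb, held 1 and 0. The 7 genes of laminins and the basement membrane held 5 and 8 regions (5.86 and 10.4 expected), of which *Lama2*, the laminin chain that dystroglycan binds in muscle, held 4 and 2. The 6 genes of integrins and the costamere held 3 and 1 (3.76 and 6.78 expected), and all 3 of the former lay at *Itga7*, the laminin-binding integrin of muscle. Counts in HRTΔIKKβ were below expectation in each of these lists and in the 8 genes, and close to it in the other genes of the dystrophin complex. The count expected from chromosome density lay above the upper interval bound for the integrin list (5.57) and the 8 genes (21.0). It lay inside the interval for the other lists. From GC classes 18.5 regions were expected in the 8 genes, which is inside their interval. No expectation from GC classes was made for the related lists.

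**Figure D5:**
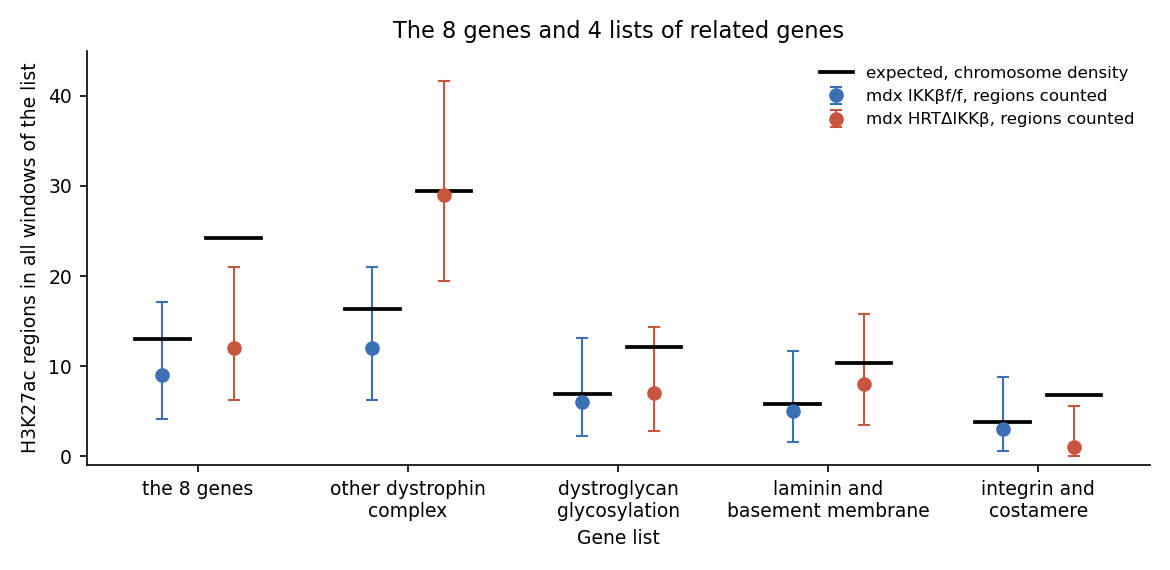
Regions counted in all windows of the 8 genes and of 4 lists of related genes (points, with exact Poisson 95% intervals) for both genotypes, beside the count expected from chromosome density (bars). The 8 genes held 12 HRTΔIKKβ regions with 24.2 expected (18.5 from GC classes, not drawn). The other 11 genes of the complex held 29 with 29.4 expected.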

How the data were processed

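H3K27ac was measured in 1 ChIP library each of *mdx* IKKβf/f and *mdx* HRTΔIKKβ hearts, both with a matched input. The authors mapped paired reads to mm9 with Bowtie2 and called regions with HOMER (versions not given in the sources used here). Per the file headers, the caller expected 14.463 tags per 500 bp window in IKKβf/f and 15.615 in HRTΔIKKβ, allowed 2 and 3 tags per position, and used fragments of 182 and 196 bp. The deposited normalized tags are a signal scaled to 10000000 tags per library, and input tags are a coverage signal. The deposited score is the caller's, the fold is a ratio to input scaled to one depth, and the p-value is the caller's Poisson value at 0.0001 or less, not used here.

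Regions were counted by centre in windows of 1 record per gene symbol (142 symbols had several, and the longest was kept), with 18 and 25 regions on unplaced sequence left out. Expected counts used assembled bases per chromosome, or 1 kb bins in classes of 5% GC over all autosomes. Fold intervals came from exact binomial intervals that take ChIP and input tags as counts. They hold only as far as these signals behave as counts. All genes of the rule are named, and regions by nearness to the start and peak score. The members and lists were chosen with earlier results of these data known. The classes of window length were set after seeing the data. Some results on single genes and sites are not reported here. The list symbols *Gtdc2* and *Sgk196* were not matched. Sequences were read from mm9, and a RefSeq promoter table of another build was not used. Counting was tested on simulated regions, where 9 of 9 checks gave the known answer. The work was done with pysam 0.24.0, pandas 2.3.3, NumPy 2.4.6, SciPy 1.17.1 and matplotlib 3.10.9 in Python 3.11.15.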

Additional observations from a re-analysis of the deposited data

How the results depend on the processing

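Regions in the windows numbered 9 to 10 in IKKβf/f and 11 to 15 in HRTΔIKKβ with the gene body alone, 50 kb upstream, any overlap or merging within 1000 bp, and the ratio to expectation stayed under 1 in both under these settings and under each way of setting the expectation. With 50 kb upstream, genes with a region went from 3 to 4 and from 4 to 6. *Sgca* gained 1 region in each genotype, and *Utrn* and *Sntb1* gained 1 each in HRTΔIKKβ. With scores at or above 1.5 times the lowest, 0 regions, 0 genes and a ratio of 0 were left in both genotypes, where only 0.19 and 0.57 regions were expected. At 8-fold or more, IKKβf/f had 0 regions, 0 genes and a ratio of 0 with 1.75 expected, and HRTΔIKKβ had 5 regions and a ratio of 1.08. At a score of 32 or more, just above the 31.3 that matches the IKKβf/f threshold relative to expected tags, HRTΔIKKβ had 5 regions. The ratio was 0.335, and 1 gene had more regions in HRTΔIKKβ than in IKKβf/f. At a score of 31 or more, chosen after seeing the data, HRTΔIKKβ had 8 regions. No paired analysis was possible because each genotype had 1 library and no value came from a test. For the same reason no library could be left out in turn.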
